A study of Homo sapiens with 4 samples.

Results

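The genes described here are 4 members of the plasminogen activation system in H1975, a human lung adenocarcinoma cell line: PLAU, PLAT, PLAUR and SERPINE2. They were taken by gene symbol from a table of 15562 genes, and all 4 symbols were found. They were chosen by role and with their counts in hypoxia and normoxia known, so each difference between the conditions is a description and carries no test. The cells, labelled WT, were grown in medium with fetal bovine serum. One set was kept for 24 h in normoxia, labelled NC. The other was kept for 24 h in a gas mixture of 1% O2, 5% CO2 and 94% N2, labelled hypoxia. Per condition 1 RNA-seq library and 1 miRNA-seq library were made, 4 libraries in all, so there is no spread between cultures to set a difference against. The error given with each value is the 95% interval that counting reads allows, which covers counting error only.

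Plasmin is the serine protease that dissolves fibrin and cleaves many matrix proteins, and it is made when an activator cuts its inactive precursor, plasminogen. PLAU encodes urokinase (uPA), the activator that works mostly at cell surfaces, and PLAT encodes tissue-type plasminogen activator (tPA), best known for fibrin clots. PLAUR encodes the urokinase receptor (uPAR), a membrane-anchored protein that holds uPA at the surface of migrating cells. SERPINE2 encodes protease nexin-1, a secreted serpin that traps uPA, tPA and thrombin. A serpin is a protease inhibitor that is cleaved by its target and then stays bound to it. SERPINE2 is the 1 serpin among the 4 members, and PLAUR is a receptor, so neither activators nor inhibitors describe the set in full.

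The normoxia RNA-seq library had a total of 17643836 counts and the hypoxia one 18943320. Known targets of hypoxia-inducible factors (HIF) were read beside the labels, 10 genes from a list chosen with earlier results of these data known. This is no independent check of the labels. A higher scaled count in hypoxia was found for 10 of 10, and for 6450 of all 12725 genes tested. The 10 targets had a median log2 ratio of 0.64, against 0.00 over all genes tested. The interval lay wholly above 0 for 8 of them, against 15.0% of all genes tested. Of 10 lung adenocarcinoma epithelium markers 8 passed the filter on low counts, and the summed level of all 10 was 9166 CPM (counts per 1e6 counts of the library) in normoxia and 8296 in hypoxia. The lung surfactant genes SFTPB (14 and 14 counts in normoxia and hypoxia) and SFTPC (4 and 2) were under the filter. The summed level of 6 fibroblast markers was 114 and 118 CPM, of 4 endothelial markers 5.82 and 5.51 CPM and of 4 leukocyte markers 244 and 238 CPM, most of it from CD68. Of the other leukocyte markers CD14 had 402 and 315 counts, CD79A 63 and 36, and PTPRC 0 and 2. Of the endothelial markers CDH5 had 73 and 57 counts, PECAM1 24 and 40, KDR 6 and 5, and VWF 0 and 2. In a bulk library, fewer cells of a type and less RNA per cell cannot be told apart.

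SERPINE2 is the member whose ratio between the conditions was farthest from 1. The stretch before its annotated start is shown because it holds a core motif of HIF, as that of PLAUR does. Of the 4 members 3 were found in a RefSeq promoter table of GRCh38.p14, and PLAT was not. The 250 bases before the start in that table are given 5′ to 3′ in the direction of the gene. Capitals mark matches, on both strands, to ACGTG (a HIF core), GCGTG (another HIF core), TGANTCA (the AP-1 site), GGGCGG (the SP1 box), TATAAA (the TATA box) and GGAAGT (an ETS core). The windows are SERPINE2 at chr2:224031479-224031728 (minus strand), PLAUR at chr19:43670170-43670419 (minus strand) and PLAU at chr10:73910360-73910609 (plus strand).

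SERPINE2: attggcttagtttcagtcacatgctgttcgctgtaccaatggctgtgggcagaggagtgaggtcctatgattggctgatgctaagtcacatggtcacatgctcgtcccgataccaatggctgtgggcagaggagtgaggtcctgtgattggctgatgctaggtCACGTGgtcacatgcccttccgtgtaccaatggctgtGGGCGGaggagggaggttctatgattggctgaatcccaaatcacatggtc
PLAUR: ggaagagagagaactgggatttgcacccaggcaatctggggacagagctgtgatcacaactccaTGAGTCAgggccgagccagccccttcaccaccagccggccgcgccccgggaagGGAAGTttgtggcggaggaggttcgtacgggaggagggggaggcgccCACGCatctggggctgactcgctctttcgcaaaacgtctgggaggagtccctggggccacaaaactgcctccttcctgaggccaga
PLAU: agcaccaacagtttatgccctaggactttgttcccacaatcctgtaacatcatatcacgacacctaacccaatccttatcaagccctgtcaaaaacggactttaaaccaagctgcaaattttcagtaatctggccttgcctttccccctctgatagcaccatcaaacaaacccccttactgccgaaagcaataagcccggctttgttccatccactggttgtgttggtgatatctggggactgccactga

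The SERPINE2 window held ACGTG on both strands within the overlapping palindrome CACGTG, whose first base lay 87 bases before the start, and 1 GGGCGG match. ACGTG was found in 23.1% of 10426 promoter windows of genes tested, CACGTG in 8.84% and GGGCGG in 67.9%. At least 1 of the HIF cores ACGTG and GCGTG was in 57.4% of the windows. The palindrome lies in a tandem repeat: the run taccaatggctg occurred 3 times, 77 bases apart, and 4.33% of the windows held a run of 12 bases that often. At the same offset in the copy farthest from the start, the hexamer differed from CACGTG by A4G, counted from the first base of the hexamer with the base of the farther copy given first. In the copy nearest the start the same offset held TCACAT, and CACATG, the hexamer of the farthest copy, began 1 base further on. CACATG occurred 5 times in the window in the direction of the gene. The PLAUR window held 1 GCGTG match on the reverse strand, 1 TGANTCA match and 1 GGAAGT match. These motifs were in 45.6%, 3.83% and 23.5% of windows. The PLAU window held none of the 6 motifs, of which TATAAA was in 5.26% of windows. G and C made up 53.2% of the SERPINE2 window, 46.8% of the PLAU window and 63.2% of the PLAUR window, against a median of 65.2%. The start used lies 7808 bases inside the RefSeq span of SERPINE2 and 1778 bases inside that of PLAU, and at the very edge of PLAUR. Gene counts do not show which start was in use, so a match here is a description of letters.

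Levels between genes were compared in FPKM, the scale that the authors corrected for gene length and library total. PLAU was by far the most abundant member. It had 136 FPKM in normoxia (132.8 to 139.8) and 117 in hypoxia (114 to 120.5), ranks 459 and 538 of the 12725 genes tested. PLAT had 15.6 FPKM (14.6 to 16.7) and 15.7 (14.7 to 16.7), and PLAUR had 13.9 (12.9 to 14.9) and 14.5 (13.6 to 15.5). PLAT had 1.13 times the FPKM of PLAUR in normoxia (1.02 to 1.24, exact conditional interval) and 1.08 times in hypoxia (0.982 to 1.19), so counting resolved their order in normoxia and not in hypoxia. SERPINE2 was the least abundant, at 0.352 FPKM (0.201 to 0.572) in normoxia and 1.78 (1.43 to 2.20) in hypoxia, ranks 12226 and 10235. In both conditions PLAU stood first, PLAT and PLAUR lay close together, and SERPINE2 stood last. PLAU made up 89.7% of the summed FPKM of both activators in normoxia and 88.2% in hypoxia. Its level was 9.81 times that of its receptor PLAUR in normoxia and 8.07 times in hypoxia.

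**Figure D1:**
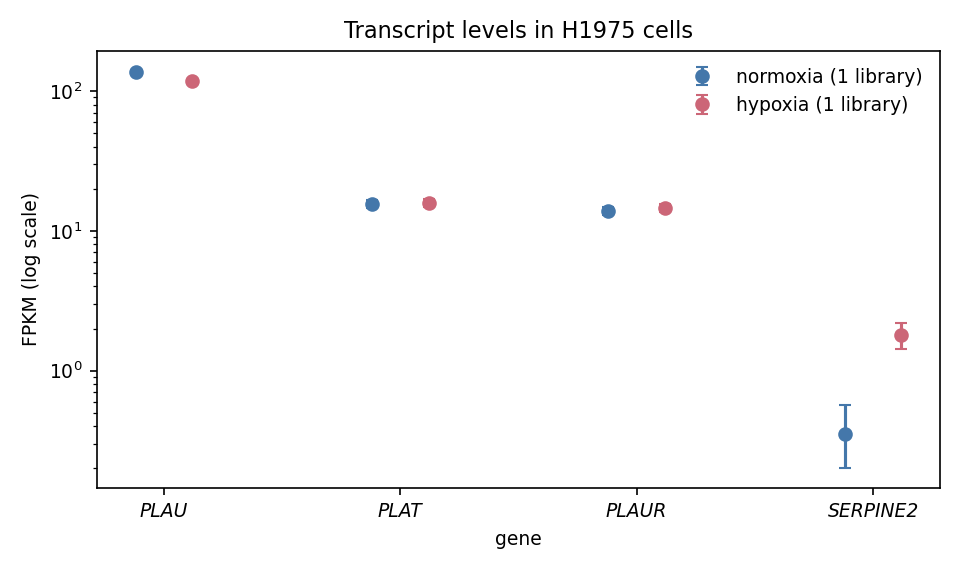
FPKM (log axis) of the 4 members in 1 normoxia and 1 hypoxia library. Points are the deposited values and bars are exact Poisson 95% counting intervals. PLAU lies above 100 in both libraries, PLAT and PLAUR lie between 13.9 and 15.7, and SERPINE2 lies at 0.352 and 1.78.

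Among the activators, PLAU (Entrez 5328, chromosome 10, 73908832 to 73917494 in GRCh38.p14) had 5904 counts in normoxia and 5458 in hypoxia. After TMM scaling (trimmed mean of M values, which sets the library totals on a common footing) this was 333.5 and 289 CPM, a log2 ratio of hypoxia to normoxia of -0.21 (-0.26 to -0.15). The hypoxia library was thus 1.15-fold lower, and its interval lay wholly below 0, as did that of 14.0% of all genes tested. PLAT (Entrez 5327, chromosome 8, 42174718 to 42207565) had 845 and 910 counts, 47.7 and 48.2 CPM. Its log2 ratio of 0.01 (-0.12 to 0.15) lay close to 0, and no difference could be detected with these reads. The interval leaves room for a ratio between 0.919 and 1.11.

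The receptor PLAUR (Entrez 5329, chromosome 19, 43646095 to 43670169) had 770 counts in normoxia and 866 in hypoxia, 43.5 and 45.9 CPM. Its log2 ratio of 0.08 (-0.06 to 0.22) held 0 within its interval, so none could be detected here either. The interval of its ratio ran from 0.956 to 1.16. The interval of its ligand PLAU lay wholly below that of PLAUR.

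The inhibitor SERPINE2 (Entrez 5270, chromosome 2, 223975045 to 224039286) had 16 counts in normoxia and 87 in hypoxia. This was 0.904 CPM (0.517 to 1.47) and 4.61 CPM (3.69 to 5.68). The ratio was 5.10 (2.97 to 9.31), a log2 ratio of 2.35 (1.57 to 3.22). It was the second highest ratio of the 12725 genes tested, in the contrast that served to choose it. The size rule called a gene when the libraries differed 2-fold or more and the interval of the ratio left out 1. By that rule 1 of the 4 members, SERPINE2, was called higher and 0 lower, where 0.472% of all genes tested were called higher, 0.440% lower and 0.912% either way. SERPINE2 passed the filter of 1 CPM through the hypoxia library alone. Of the 157 genes that did so 42 were called higher, and they make up most of the 60 genes called higher in all. The 87 counts in hypoxia are few: where both libraries had at least 100 counts, for 10739 genes, 3 were called higher and 1 lower.

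**Figure D2:**
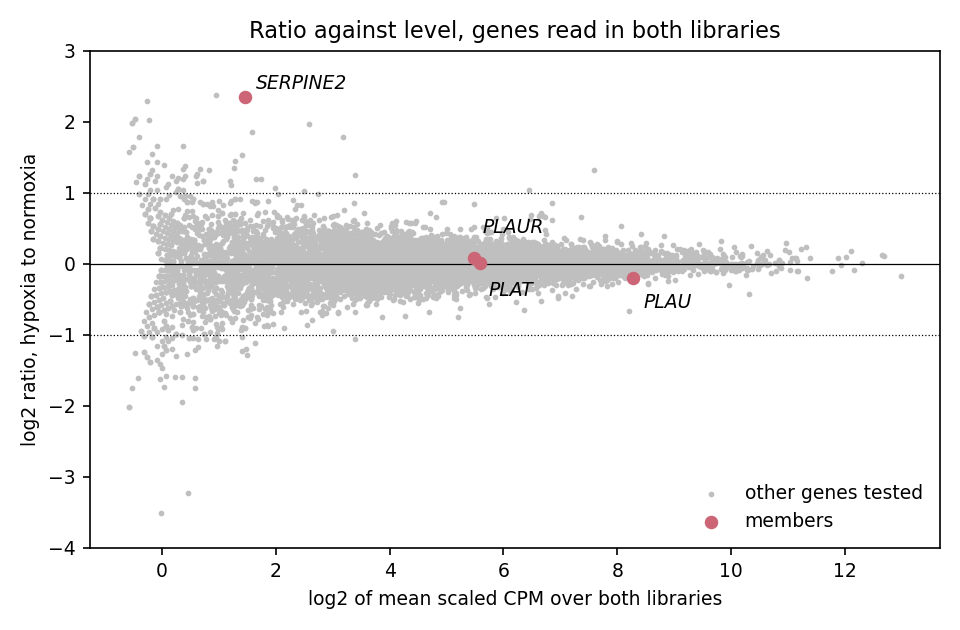
Log2 ratio of hypoxia to normoxia against the log2 of the mean scaled CPM for each gene tested that was read in both libraries. The dotted lines mark a 2-fold difference. SERPINE2 lies at 2.35 among genes with few reads, and PLAUR at 0.08, PLAT at 0.01 and PLAU at -0.21 lie within the band of most genes.

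The difference in SERPINE2 was not shared by the genes next to it on chromosome 2. Its nearest tested neighbour on the lower coordinate side, MRPL44, a mitochondrial ribosomal protein gene 7.33 kb away, had a log2 ratio of -0.07 (-0.19 to 0.06). WDFY1, 29.7 kb away on the same side, was at 0.09 (-0.03 to 0.22). On the other side CUL3, a ubiquitin ligase scaffold 431 kb away, was at -0.10 (-0.20 to -0.00), and DOCK10 at 0.12 (-0.02 to 0.26). Of these 4 neighbours 0 were called by size, where 0.912% of all genes tested were. The RefSeq spans of SERPINE2, PLAU and PLAUR each overlap a noncoding gene, such as C10orf55 at PLAU. None of these noncoding genes is in the table, and how reads on the opposite strand were counted is not known here.

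By distance in log2 FPKM over both libraries the genes nearest to SERPINE2 were SERPINB3, another serpin, at 0.64 (11 and 37 counts), the linker histone H1-3 at 0.73 (8 and 27) and DKKL1 at 0.81 (13 and 32). For the other members the nearest genes were closer. Nearest to PLAU were AURKAIP1 at 0.047, NDUFB7 at 0.049 and UQCR11 at 0.062. Nearest to PLAUR were TRNAU1AP, FERMT2 and MAPK14, the farthest at 0.012, and nearest to PLAT were GGA2, DDX19A and SPECC1, the farthest at 0.015. With 2 libraries this likeness rests on 2 values a gene. For SERPINE2 these values come from the contrast that served to choose it.

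In the annotation that the authors deposited with the counts, all 4 members carry the term blood coagulation, which 145 genes of the table carry. PLAU, PLAUR and PLAT share fibrinolysis, a term of 13 genes, and the pathway named complement and coagulation cascades, of 58 genes. SERPINE2 carries neither, and it shares negative regulation of proteolysis, a term of 17 genes, with PLAT. PLAU and PLAT share plasminogen activation, a term of 8 genes.

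The plasminogen activation list read here held 12 genes, of which 9 were in the table and 7 passed the filter. PLG (plasminogen itself), SERPINB2 and CPB2 were not analysed here. Of the 7, SERPINE2 was called higher and 0 were called lower, where 0.472% of all genes tested were called higher and 0.440% lower. The interval lay wholly above 0 for 1, SERPINE2, and wholly below 0 for 1, PLAU, where 15.0% of all genes tested lay wholly above and 14.0% wholly below. Their median log2 ratio was -0.08, against 0.00 over all genes tested, and it was -0.19 over the 3 that are not members.

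The level of the activators relative to SERPINE2 differed between the libraries, which largely restates the SERPINE2 ratio of 5.10. That ratio comes from the contrast that served to choose SERPINE2, so the values below add no support to it. The summed FPKM of PLAU and PLAT was 152 in normoxia and 133 in hypoxia, of which PLAU made up 89.7% and 88.2%. PLAU had 387 times the FPKM of SERPINE2 in normoxia and 65.7 times in hypoxia, where SERPINE2 had 16 and 87 counts. These are ratios of transcripts and say nothing of secreted protein or enzyme activity.

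The other genes of the list had few reads. SERPINF2, the plasmin inhibitor alpha2-antiplasmin, had 80 and 74 counts (log2 ratio -0.21, -0.68 to 0.27). SERPINA5, the protein C inhibitor that also blocks uPA, had 84 and 85 (-0.08, -0.53 to 0.38). F12, the contact-phase protease factor XII, had 157 and 147 (-0.19, -0.52 to 0.15). For these 3 the reads were too few to show a difference of this size. SERPINI1, neuroserpin, an inhibitor of tPA, had 7 and 9 counts, and KLKB1, plasma kallikrein, had 1 and 0, both under the filter.

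**Figure D3:**
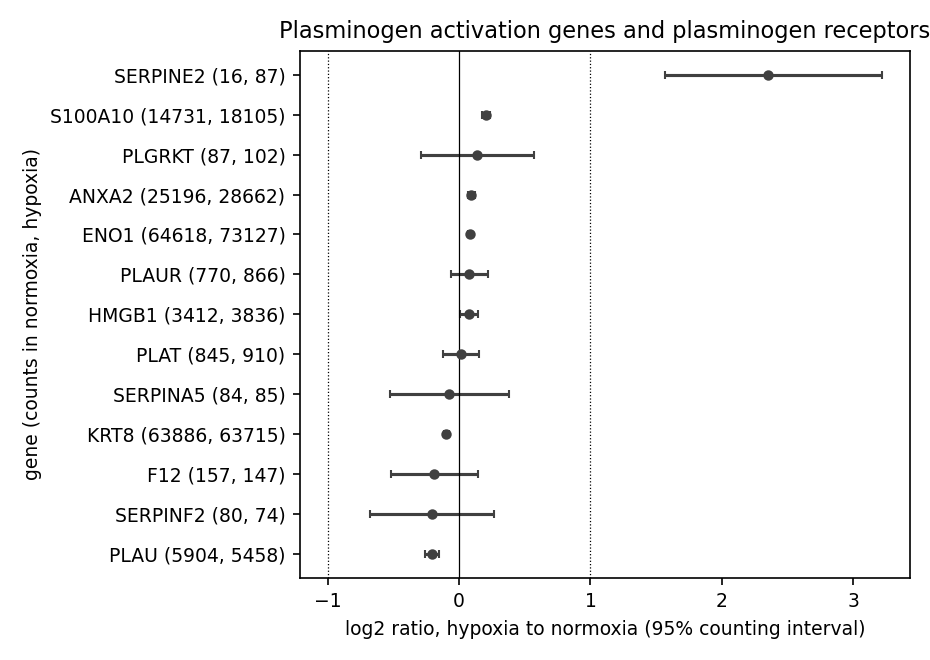
Log2 ratio of hypoxia to normoxia with its 95% counting interval for the 7 plasminogen activation genes and 6 plasminogen receptors that passed the filter, with counts in normoxia and hypoxia beside each name. Dotted lines mark a 2-fold difference. SERPINE2 lies at 2.35, and each of the other genes lies between PLAU at -0.21 and S100A10 at 0.20.

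Plasminogen itself docks on cells through several surface proteins, and 6 of these were read here. S100A10, which with ANXA2 forms the annexin A2 complex that binds plasminogen and tPA, had 14731 counts in normoxia and 18105 in hypoxia. Its level was 1244 and 1424 FPKM, and its log2 ratio was 0.20 (0.17 to 0.24). ANXA2 had 25196 and 28662 counts, a log2 ratio of 0.09 (0.07 to 0.12). ENO1, a glycolytic enzyme also found at the surface, was at 0.09 (0.07 to 0.10), and HMGB1 at 0.08 (0.01 to 0.14). The keratin KRT8 was at -0.10 (-0.11 to -0.08), and PLGRKT, a dedicated plasminogen receptor, had 87 and 102 counts (0.14, -0.29 to 0.57). At 3.04 and 3.32 FPKM it was the least abundant of the 6. Of these 6 genes, 4 intervals lay wholly above 0 and 1 wholly below, with a median of 0.09 and 0 called by size, where 15.0% of all genes tested lay wholly above and 14.0% wholly below. By size 0.912% of all genes tested were called. Where reads were many the intervals are narrow, and the highest ratio was the 1.15 of S100A10. Several of these genes have processed pseudogenes, so their counts may include or lack reads of near-identical copies.

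Complexes of uPA or tPA with a serpin are taken up by endocytic receptors. LRP1, the main one, had 3353 and 3926 counts, a log2 ratio of 0.13 (0.07 to 0.20). SORL1 was at 0.17 (0.03 to 0.32) and VLDLR, with 34 and 40 counts, at 0.14 (-0.55 to 0.85). MRC2, a collagen receptor that associates with uPAR, was at -0.21 (-0.31 to -0.10), and LRPAP1, a chaperone of LRP1, at -0.03 (-0.13 to 0.07). Of 9 genes read 8 were in the table and 7 passed, with a median of 0.11, 3 intervals wholly above 0, 1 wholly below and 0 called. The shares of 15.0% and 14.0% over all genes are the background for the intervals of this list and of each list that follows. These shares were not matched for read depth. Intervals are narrower where reads are many, so in a list of well-read genes small ratios can have intervals that leave out 0. For the calls the background is 0.472% higher and 0.440% lower, so 0 called in a short list is close to it.

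uPAR has no domain inside the cell and signals through partners. Of 13 listed partners 12 were in the table and 10 passed, with a median log2 ratio of 0.15. The intervals of 6 lay wholly above 0 and of 0 wholly below, against 15.0% and 14.0% of all genes, and 0 were called. Those shares were not matched for the read depth of this list. EGFR had 4057 and 5335 counts, a log2 ratio of 0.30 (0.24 to 0.36). The integrin subunits ITGB3 at 0.30 (0.20 to 0.39) and ITGA5 at 0.26 (0.22 to 0.30) came next. VTN, vitronectin, a matrix ligand of uPAR, had 304 and 380 counts, at 0.23 (0.01 to 0.45). FPR1 with 38 and 32 counts was lowest at -0.34 (-1.07 to 0.38), and ITGB5 was at -0.06 (-0.17 to 0.05). The highest ratio of the list was the 1.23 of EGFR.

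The family of the inhibitor gave another comparison. Of 19 genes with a SERPIN symbol read here, 16 passed the filter. Their median log2 ratio was -0.04. By size 2 were called higher and 0 lower, where 0.472% of all genes tested were called higher and 0.440% lower. Of these 2, SERPINE2 was chosen in this contrast, and both passed the filter through the hypoxia library alone. The intervals of 6 lay wholly above 0 and of 1 wholly below, against 15.0% and 14.0% of all genes. Among the 19 serpins SERPINE2 ranked 17 by FPKM in normoxia and 9 in hypoxia, while the 4 highest kept their order: SERPINH1, SERPINB6, SERPINB1 and SERPINA1. SERPINH1, the collagen chaperone HSP47, had 270 and 287 FPKM, more than each other serpin read.

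The other serpin called higher was SERPINB3, a squamous cell carcinoma antigen, with 11 counts in normoxia and 37 in hypoxia (log2 ratio 1.66, 0.66 to 2.78), or 0.621 and 1.96 CPM. SERPINB4, its near-identical neighbour, had 32 and 64 (0.91, 0.27 to 1.57). Reads of this pair can be split between them by the counting, so each value is uncertain. SERPINB8, an intracellular inhibitor of furin, had 202 and 273 counts (0.34, 0.07 to 0.61), and SERPINA1, alpha1-antitrypsin, had 965 and 1140 (0.15, 0.02 to 0.27). On the lower side SERPINF1, the antiangiogenic factor PEDF, had 75 and 49 counts, a log2 ratio of -0.71 (-1.26 to -0.17). SERPINB5, maspin, had 23 and 14 (-0.81, -1.88 to 0.21), and its interval holds 0.

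**Figure D4:**
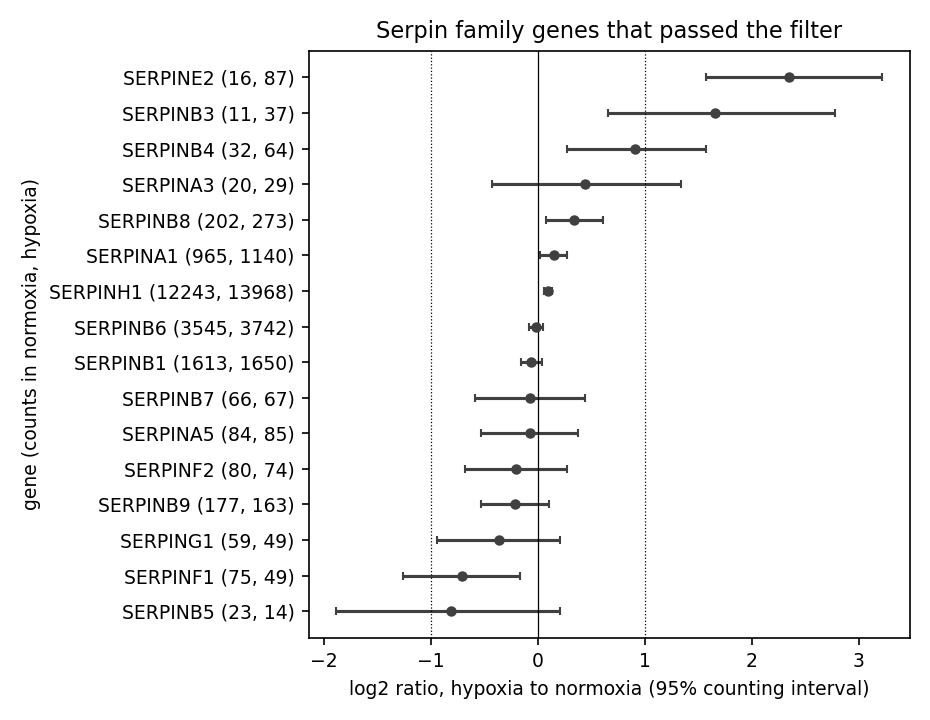
Log2 ratio of hypoxia to normoxia with its 95% counting interval for the 16 serpin genes that passed the filter, with counts in normoxia and hypoxia beside each name. SERPINE2 at 2.35 and SERPINB3 at 1.66 lie beyond the dotted line of a 2-fold difference, and SERPINB5 at -0.81 is lowest.

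Inhibitors of serine proteases outside the serpin family were read as a further list. Of 14 listed genes 12 were in the table and 8 passed, with a median of -0.05, 1 interval wholly above 0, 1 wholly below and 0 called. The Kunitz inhibitors SPINT1 at -0.17 (-0.37 to 0.03) and TFPI2 at -0.17 (-0.50 to 0.16) were lowest. SPINK5 at 0.15 (-0.17 to 0.47) and APP at 0.09 (0.05 to 0.13) were highest.

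Of 22 trypsin-like proteases 17 were in the table and 10 passed, with a median of -0.15, 1 interval wholly above 0, 2 wholly below and 0 called. Thrombin (F2), the best-known target of protease nexin-1, was not analysed here. PRSS8, prostasin, a membrane protease that protease nexin-1 can inhibit, had 52 and 37 counts (-0.58, -1.23 to 0.05). PRSS3, a trypsinogen, had 302 and 245 (-0.39, -0.64 to -0.15). TMPRSS3 at 0.21 (-0.32 to 0.75) and HGFAC at 0.16 (-0.88 to 1.21), both with under 100 counts, were highest.

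Proteins that plasmin cleaves or activates were read as a list of 22 genes. Of these, 21 had counts listed and 18 passed, with a median of 0.08, 6 intervals wholly above 0, 3 wholly below, 1 gene called higher and 1 lower. Over all genes tested the shares were 15.0%, 14.0%, 0.472% and 0.440% in the same order. MMP3, stromelysin-1, a matrix protease whose proenzyme plasmin activates, had 23 counts in normoxia and 89 in hypoxia (1.86, 1.18 to 2.59). MMP9, gelatinase B, had 37 and 17 (-1.21, -2.14 to -0.35), and it passed the filter through the normoxia library alone. Both calls rest on fewer than 100 counts a library, as that of SERPINE2 does. PDGFD, a growth factor that uPA can activate, had 33 and 54 (0.62, -0.03 to 1.29). LTBP1, which stores latent TGF-beta in the matrix, had 305 and 269 (-0.27, -0.52 to -0.03).

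Transcription factors known to act on genes of this system showed no common direction. All 26 listed were in the table and passed, with a median of 0.01, 5 intervals wholly above 0, 7 wholly below and 0 called. Among the AP-1 subunits, which are known to bind the PLAU enhancer, FOSL1 had 2579 and 1969 counts (-0.48, -0.57 to -0.40) and JUN had 3008 and 2350 (-0.45, -0.53 to -0.37). JUNB at 0.25 (0.20 to 0.30) and FOSB, with 64 and 106 counts, at 0.64 (0.17 to 1.11) lay on the other side. Whether these factors bear on the members was not tested.

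RNA-binding proteins that are known to bind mRNAs of this system, 8 of 8 passed, had a median of 0.04, with 3 intervals wholly above 0, 1 wholly below and 0 called. PGK1, a glycolytic enzyme reported to bind PLAUR mRNA, was highest at 0.32 (0.29 to 0.36), with ZFP36 at 0.10 (-0.10 to 0.30) next. ZFP36L1, which speeds the decay of AU-rich mRNAs, was lowest at -0.19 (-0.25 to -0.13), followed by ELAVL1 at -0.04 (-0.11 to 0.04). Relatives of PLAUR in the LY6/uPAR family had a median of -0.03 over 8 that passed of 13 in the table, with 2 intervals on each side and 0 called. LYPD5 had 45 and 89 counts (0.89, 0.36 to 1.44), and CD59, a complement inhibitor, was at 0.21 (0.17 to 0.25). LY6K at -0.31 (-0.47 to -0.15) and LYPD6 at -0.22 (-0.64 to 0.19) were lowest.

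**Figure D5:**
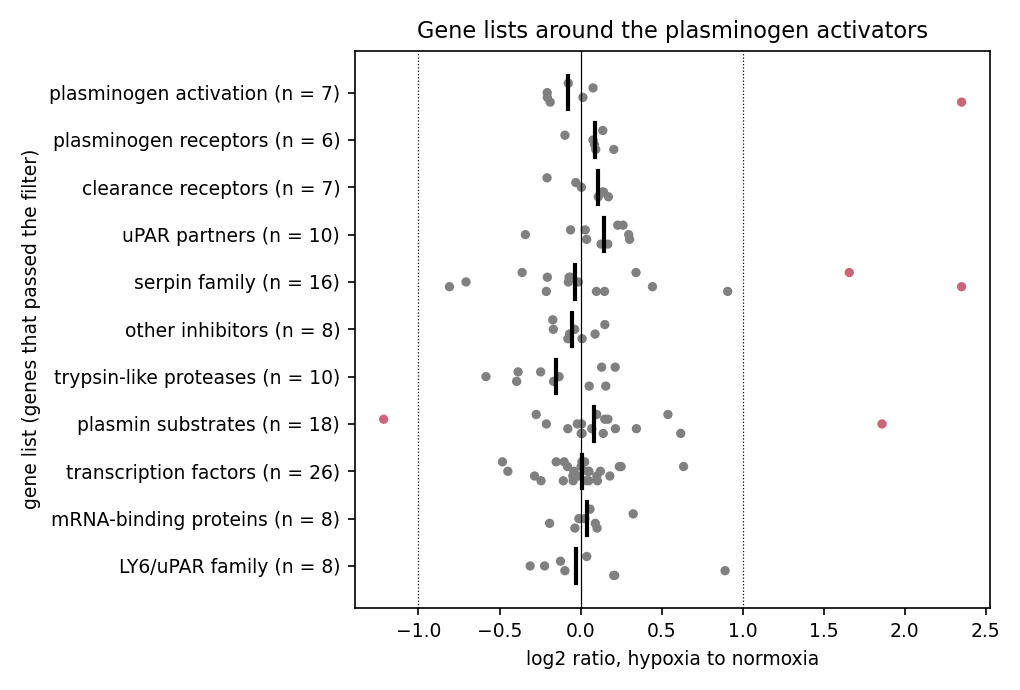
Log2 ratio of hypoxia to normoxia for each gene that passed the filter in 11 lists, with points shifted up or down for legibility. Black bars are list medians, red points are genes called by size and dotted lines mark a 2-fold difference. The medians run from -0.15 (trypsin-like proteases) to 0.15 (uPAR partners), and SERPINE2 at 2.35 is the highest point.

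The miRNA libraries were searched for 4 miRNAs of families reported to regulate PLAU, of which miR-23a-3p and miR-23b-3p were among the 141 with values. Their mature sequences from the deposited table, written with T for U, are shown because they share 1 seed (bases 2 to 8, in capitals).

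miR-23a-3p: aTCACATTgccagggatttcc
miR-23b-3p: aTCACATTgccagggattaccac

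miR-23a-3p had 19 reads of 32116 in normoxia and 0 of 6576 in hypoxia, and miR-23b-3p had 11 and 0. In normoxia this was 0.0592% (0.0356 to 0.0924, exact Clopper-Pearson) and 0.0343% (0.0171 to 0.0613) of miRNA reads. A count of 0 in hypoxia allows a share of up to 0.0561% by the same exact interval. Per total miRNA reads, the exact conditional 95% interval of the ratio of hypoxia to normoxia ran from 0 to 1.05 for miR-23a-3p and from 0 to 1.95 for miR-23b-3p, and both hold 1. For the summed 30 and 0 reads, a sum taken after the values were seen, it ran from 0 to 0.639, which leaves out 1, though the sequences are so alike that the counting may have split reads between them or counted them for both. Listing at 0 in hypoxia was common: of 93 miRNAs with at least 11 reads in normoxia, 47 had 0 reads in hypoxia.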

How the data were processed

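RNA-seq and miRNA-seq were run on 1 library each of normoxic and hypoxic H1975 cells. Per the labels' protocols a stranded mRNA kit was used for RNA-seq. Per the submitters' processing notes the build was GRCh38 and the tools included HISAT2, HTSeq, Cufflinks, Trimmomatic and Bowtie. Their versions and roles, and any use of strand in counting, are not given in the sources used here. Values used here were the deposited read counts per gene and per miRNA, and the deposited FPKM. The authors' FPKM equalled the counts divided by the table total and a gene length, and the lengths this implies were whole numbers (tolerance 0.01 bases) for 100% of the genes read.

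Counts were scaled with TMM in edgeR 4.0.16 (R 4.3.3). At these depths 1 read equals 0.0565 CPM in normoxia and 0.0530 in hypoxia. Ratios carry exact conditional (Clopper-Pearson) 95% intervals and levels exact Poisson intervals, computed in Python 3.11.15 with scipy 1.17.1. Genes at 1 CPM or more in at least 1 library were tested for size, with no p-value. These intervals leave out variation between cultures and any duplicate reads, which no molecular identifiers mark, so they are likely too narrow. How many reads were duplicates was not measured. The procedure was also run on simulated Poisson counts, the model from which the intervals are built, with no variation between cultures. That run cannot show how the intervals hold for real libraries.

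The members and lists were chosen with earlier results of these data known. Named genes were all members, the plasminogen activation and plasminogen receptor lists, and of each other list the genes called and the 2 highest and 2 lowest. A few further members of the lists (LRP1, ITGA5, VTN, SERPINB4, SERPINB8, SERPINA1 and the most abundant serpins) were named after their values were seen. Some genes of the lists and of the serpin family are not reported here, and list counts, medians and ranks leave them out. Coordinates and promoters come from RefSeq tables of GRCh38.p14, to which 15522 genes matched by Entrez identifier. Alternatives were upper quartile scaling, scaling to total counts or by DESeq2 1.42.0 size factors, FPKM with a pseudocount of 1 or 0.1, other filters and a stricter call.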

Additional observations from a re-analysis of the deposited data

How the results depend on the processing

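The ratios of PLAU, PLAUR and PLAT and the medians of all 12 gene lists stayed within their main counting intervals under each scaling, pseudocount and filter tried, and 134 of 145 alternative values did so in all or, for numbers of calls, stayed within 1.5 times. An interval for a list median ran from the median of its lower bounds to that of its upper bounds, and is not an interval of the median itself. A filter cannot alter the ratio of a single gene. For the members the values under other filters were thus fixed in advance, and they count among the 134. The SERPINE2 log2 ratio of 2.35 was 1.04 on the log2(FPKM + 1) scale, which shrinks differences of genes with few reads, and SERPINE2 was still called. Calls on both FPKM scales used the interval of the TMM-scaled counts. SERPINE2 was not tested with a filter at 5 CPM, which its 4.61 CPM in hypoxia does not reach. The 60 genes called higher became 6 on the log2(FPKM + 1) scale, 30 on the log2(FPKM + 0.1) scale, 107 unfiltered, 7 at 5 CPM and 25 when the whole interval had to lie beyond 1.5. The 56 called lower became 1, 20, 104, 1 and 13 in the same order. No paired analysis was possible because each group holds 1 library, and no library could be left out. Depth limits SERPINE2 most: with 16 counts in normoxia the counting interval of its ratio ran from 2.97 to 9.31, before any difference between cultures. The interval also takes no account of the choice of SERPINE2 in this contrast, which can make its ratio too high.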
